A study of Mus musculus with 12 samples.

Results

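The DOK adaptors, the VAV exchangers and the RAC GTPases were followed through 12 mouse pre-B cell lines by the RNA of their genes. The genes were taken by name: Dok1, Dok2 and Dok3, Vav1, Vav2 and Vav3, Rac1, Rac2 and Rac3, and Rhoh, which makes 10 of the 51826 genes in the count table. The rule was by name alone, though it was set with earlier results of these data known, and all 10 had enough reads to be tested. Of these genes, Dok3 was lower and Dok2 was higher in lines transformed by BCR-ABL1 than in control lines. Vav2 was lower by a call that most other settings of the test did not keep, whereas no RAC gene and not Rhoh passed.

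All lines came from C57BL/6 bone marrow of 2 mice, whose age is not given in the sources used here. The methods of the study describe its wild-type marrow donors as female. The marrow grew for 7 days in medium with interleukin 7 (IL7), the cytokine on which B cell precursors depend in culture. Pre-B cells of each mouse were then infected with a retroviral vector, which gave each mouse 3 control lines carrying an empty vector (EV) and 3 lines carrying BCR-ABL1, and all lines stayed 48 h in IL7. BCR-ABL1 is the fusion kinase of the Philadelphia chromosome, here supplied by the vector in otherwise wild-type cells. The 6 BCR-ABL1 lines then spent 1 week in medium lacking IL7, by the end of which they counted as transformed. IL7 was never taken from the 6 EV lines, from which cells with GFP, the marker of the vector, were sorted before RNA was made. BCR-ABL1, IL7 withdrawal and the absence of that sort therefore fell on the same 6 lines, and their parts in any difference cannot be told apart. Lines are named by mouse and letter, so that EV 2C is an EV line of mouse 2.

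DOK proteins are adaptors that carry a membrane-binding and a phosphotyrosine-binding domain. Once phosphorylated by a kinase they recruit inhibitors such as RASGAP and SHIP1, and DOK1 and DOK2 are known substrates of BCR-ABL1. DOK3 is a brake on B cell receptor signalling. VAV proteins are exchange factors that are switched on by tyrosine phosphorylation and load RAC with GTP. VAV1 is largely restricted to blood cells, whereas VAV2 and VAV3 are found more widely. RAC GTPases in their GTP-bound form act on the actin skeleton, on kinases of the PAK family and on the NADPH oxidase. RAC1 is made in most cells, RAC2 mainly in blood cells and RAC3 mainly in the nervous system. RHOH is a blood cell relative of RAC that does not hydrolyse GTP and can oppose RAC.

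Values are counts per 1000000 reads (CPM), scaled between lines by TMM, a factor that aligns most genes. Total counts were between 34791011 and 66011225 per line, so that 3 reads, taken as the floor, stood for far less than 1 CPM in each line. Genes were called higher or lower in BCR-ABL1 lines when edgeR's glmTreat placed the change beyond 1.5-fold at an adjusted p of at most 0.05, over all 15038 genes tested. The 3 EV lines of mouse 2 varied far more than the others, with a biological coefficient of variation of 0.387 against 0.0949 in EV lines of mouse 1 and 0.085 and 0.103 in the BCR-ABL1 lines. EV 2C stood apart most: leaving it out raised the calls over all genes from 899 to 1348 higher and from 971 to 1433 lower. The lines of 1 mouse share an animal, so adjusted p-values and 95% intervals measure the spread between lines and not between mice.

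The lines carried the RNA of B cell precursors. All 12 B lineage markers were tested, and 1 of them, Il7r, was lower in BCR-ABL1 lines (log2 fold change -1.06), whereas the other 11 did not pass the test in either direction. Their summed level was 2980 to 5140 CPM with EV and 3050 to 3930 CPM with BCR-ABL1. The 15 myeloid markers summed to at most 2.36 CPM in any line, and 7 of them had no more than 3 reads in every line. The 13 T and NK cell markers summed to 15.5 to 61.3 CPM with EV and to 73.5 to 88.8 CPM with BCR-ABL1. These sums did not overlap, but nearly all of the sum with BCR-ABL1 was Cd2. In that list Cd2 was higher in BCR-ABL1 lines, with 71.7 to 86.9 CPM against 2.4 to 35.5 CPM, Trac was lower, with 0.213 to 1.34 CPM against 9.98 to 41.1 CPM, Cd3d was lower as well, and Trbc2 had no read in any line. Cd3d, a defining T cell gene, reached at most 0.644 CPM. Mast cell markers summed to at most 0.306 CPM, with Tpsb2 at 0. Erythroid and megakaryocyte markers summed to 3.12 to 9.15 CPM with EV and 6.83 to 13.7 CPM with BCR-ABL1, with Hbb-bt higher, Itga2b lower and both alpha globin genes at 0. Stromal and endothelial markers summed to 32.7 to 172 CPM with EV and 82 to 102 CPM with BCR-ABL1. Nearly all of this was Pecam1, at 32.6 to 170 CPM with EV and 81.9 to 102 CPM with BCR-ABL1. Pecam1 was the 1 gene of that list that was tested, and it was not called. Dok2, Vav1, Rac2 and Rhoh are also made by other blood cells. The part of other cells in the values was not tested for any of the 10 genes, Dok3 included. In bulk RNA fewer cells of a type and less RNA per cell cannot be told apart.

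Of the 10 genes, 6 had a promoter entry in RefSeq on GRCm38.p6. The stretches before the start sites of the called genes Dok3 and Vav2 are given here together with that of Vav1, whose RNA was close to even. Dok2 has no entry. Each run is read 5′ to 3′ on the strand of the gene and holds the 250 bases before the start. Capitals mark matches, on either strand, to 7 short motifs of factors of B cells or of general promoters. The motifs were PU.1 (GAGGAAGT), ETS (CCGGAAGT), EBF1 (CCCNNGGG), E2A (CAGGTG), STAT (TTCNNNGAA), Ikaros (TGGGAA) and the GC box (GGGCGG). PU.1 and ETS share most letters.
Dok3, chr13:55528539-55528788, minus strand: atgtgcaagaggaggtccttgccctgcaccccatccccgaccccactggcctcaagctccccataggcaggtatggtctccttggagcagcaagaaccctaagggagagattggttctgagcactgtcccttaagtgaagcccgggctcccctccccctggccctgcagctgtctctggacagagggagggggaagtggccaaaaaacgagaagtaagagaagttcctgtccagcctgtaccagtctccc
Vav2, chr2:27427609-27427858, minus strand: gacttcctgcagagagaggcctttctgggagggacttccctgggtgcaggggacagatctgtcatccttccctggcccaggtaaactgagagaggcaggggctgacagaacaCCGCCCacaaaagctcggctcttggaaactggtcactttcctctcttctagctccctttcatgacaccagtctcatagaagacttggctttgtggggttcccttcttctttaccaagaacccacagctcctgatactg
Vav1, chr17:57278850-57279099, plus strand: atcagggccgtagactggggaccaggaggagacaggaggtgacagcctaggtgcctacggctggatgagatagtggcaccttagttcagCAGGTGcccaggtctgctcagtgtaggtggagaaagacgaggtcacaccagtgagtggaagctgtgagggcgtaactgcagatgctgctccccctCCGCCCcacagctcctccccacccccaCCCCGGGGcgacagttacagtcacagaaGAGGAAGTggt
The Dok3 stretch held none of the 7 motifs, and that of Vav2 held 1 GC box. The Vav1 stretch held 4 matches: the PU.1 motif beginning 11 bases before the start, an EBF1 motif, an E2A motif and a GC box. Among the 32851 promoters of RefSeq, 2.44% held the PU.1 motif, 2.88% the ETS motif, 11.8% the EBF1 motif, 17.2% the E2A motif, 7.02% the STAT motif, 21.6% the Ikaros motif and 32.7% the GC box in a window of the same length. A match describes letters only. The RefSeq start of Dok3 lies inside the gene as GENCODE draws it, and that of Vav2 lies beyond its upstream end.

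Among the DOK genes, Dok3 fell in BCR-ABL1 lines, the rare Dok2 rose, and Dok1 did not pass the test. Dok3 (ENSMUSG00000035711, chr13:55523231-55529296 on GRCm38, minus strand) lay between 119 and 439 CPM in EV lines, with a median of 323 CPM. In BCR-ABL1 lines it lay between 91.6 and 103 CPM with a median of 92.5 CPM. The groups did not overlap, and 5 of the 6 EV lines were at 297 CPM or more. The mean fell from 318 ± 113 to 94.1 ± 4.35 CPM (SD, n = 6 each), a log2 fold change of -1.76 ± 0.24 (SE, adjusted p = 0.001369, glmTreat). BCR-ABL1 lines thus held 0.2956 times the EV level, with a 95% interval of 0.206 to 0.424. The lowest EV line was EV 2C at 119 CPM, and without it the log2 fold change was -1.93 (adjusted p = 2.113e-06). On the lines of mouse 2 alone, EV 2C included, it was -1.64 and missed the threshold (adjusted p = 0.1308).

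Dok2 (ENSMUSG00000022102, chr14:70766036-70778495, plus strand) was the rarest of the 10 genes. It was counted 13 to 31 times per EV line and 44 to 82 times per BCR-ABL1 line. In CPM this was 0.258 to 0.613 with a median of 0.393 in EV lines, and 0.851 to 1.71 with a median of 1.1 in BCR-ABL1 lines. Every BCR-ABL1 line was above every EV line. The mean rose from 0.412 ± 0.122 to 1.18 ± 0.328 CPM (SD, n = 6 each), and the log2 fold change was 1.52 ± 0.24 (SE, adjusted p = 0.004592, glmTreat). The ratio of 2.86 had a 95% interval of 1.99 to 4.11. On the lines of mouse 2 alone the log2 fold change of 1.26 missed the threshold (adjusted p = 0.2112).

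Dok1 (ENSMUSG00000068335, chr6:83030934-83033471, minus strand) ranged from 27.2 to 42.6 CPM in EV lines with a median of 33.2 CPM. The range in BCR-ABL1 lines was 32 to 37.9 CPM with a median of 35.2 CPM, within that of the EV lines. Between the groups the log2 fold change was 0.06 with a 95% interval of -0.16 to 0.28 (adjusted p = 1), so that a change beyond 1.5-fold lay outside the interval. The even mean held opposite values in the mice. In mouse 1 the EV lines had 27.2 to 31.7 CPM and the BCR-ABL1 lines 36.3 to 37.9 CPM, all of them higher. In mouse 2 the EV lines had 34.7 to 42.6 CPM and the BCR-ABL1 lines 32 to 34.1 CPM, all of them lower. Within the mice the log2 fold change was 0.33 in mouse 1 and -0.19 in mouse 2, and the difference of -0.52 passed the interaction test of edgeR (adjusted p = 0.01676). Without a filter on low counts that difference was -0.45 with an adjusted p of 0.2618.

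**Figure D1:**
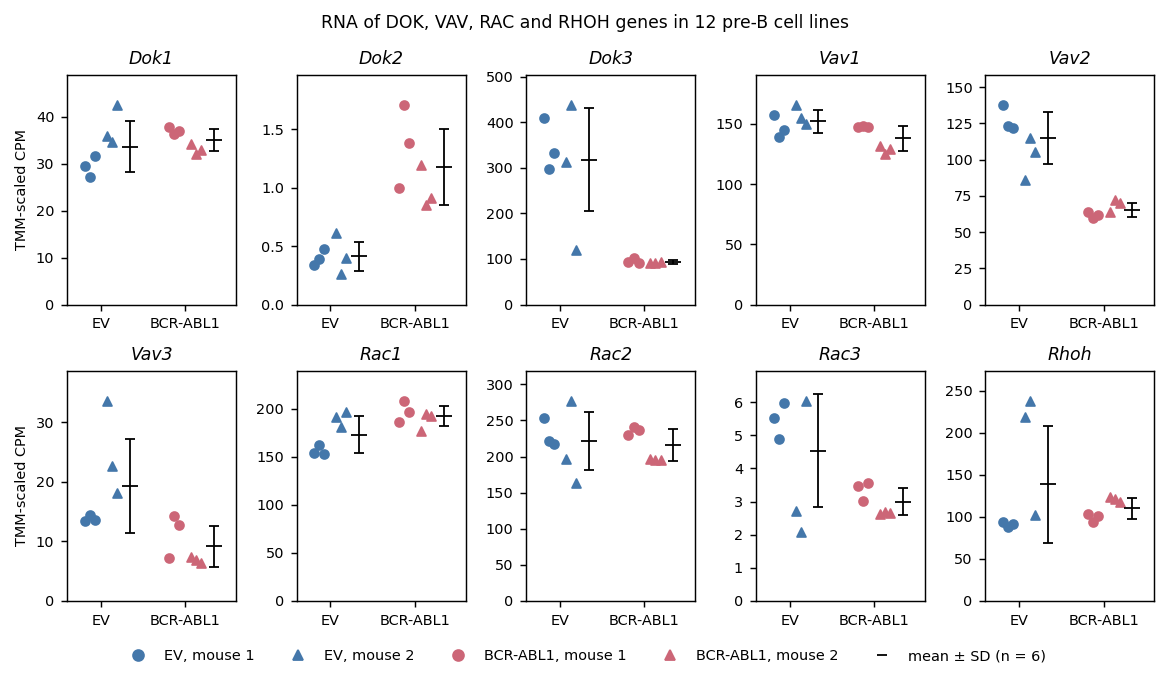
TMM-scaled CPM of the 10 genes (vertical axes from 0, a scale of its own for each gene) in 6 EV and 6 BCR-ABL1 lines; circles are lines of mouse 1, triangles lines of mouse 2, and black bars the mean ± SD. The groups stand apart for Dok2, Dok3 and Vav2, with EV 2C at 119 CPM the EV line nearest to the BCR-ABL1 lines in Dok3, and overlap for the other 7 genes.

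Among the VAV genes, Vav2 fell beyond 1.5-fold by a narrow margin, Vav1 stayed within a small interval, and Vav3 missed the threshold, with a larger decrease in mouse 2 than in mouse 1. Vav2 (ENSMUSG00000009621, chr2:27262104-27427033, minus strand) ranged from 86.1 to 138 CPM with a median of 118 CPM in EV lines. In BCR-ABL1 lines it ranged from 59.6 to 72.2 CPM with a median of 63.9 CPM. No BCR-ABL1 line reached the lowest EV line. The mean fell from 115 ± 17.7 to 65.3 ± 4.88 CPM (SD, n = 6 each), a log2 fold change of -0.82 ± 0.10 (SE, adjusted p = 0.04216, glmTreat). BCR-ABL1 lines held 0.5681 times the EV level, with a 95% interval of 0.488 to 0.662. The upper end of that interval is close to a 1.5-fold decrease, and the call was lost under 14 of 22 other settings, with adjusted p-values from 0.0503 to 0.8538 in them. Against no change at all, the adjusted p was 8.838e-05.

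The decrease of Vav2 was larger in mouse 1, where the EV lines held 122 to 138 CPM and the BCR-ABL1 lines 59.6 to 63.6 CPM. In mouse 2 the EV lines held 86.1 to 115 CPM and the BCR-ABL1 lines 64.2 to 72.2 CPM. The log2 fold changes of -1.05 and -0.57 differed by 0.48 between the mice (adjusted p = 0.04865, interaction test of edgeR). The difference missed the threshold without a filter on low counts (adjusted p = 0.06972).

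Vav1 (ENSMUSG00000034116, chr17:57279100-57328031, plus strand), the exchanger restricted to blood cells, held 139 to 166 CPM with a median of 153 CPM in EV lines. BCR-ABL1 lines held 125 to 148 CPM with a median of 139 CPM, and the groups overlapped. The mean was 152 ± 9.38 CPM in EV and 138 ± 10.6 CPM in BCR-ABL1 lines (SD, n = 6 each). The log2 fold change of -0.14 had a 95% interval of -0.28 to -0.0019 (adjusted p = 1 against 1.5-fold and 0.08554 against no change).

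Vav3 (ENSMUSG00000033721, chr3:109340653-109685698, plus strand) lay between 13.4 and 33.6 CPM (median 16.3) in EV lines and between 6.45 and 14.2 CPM (median 7.28) in BCR-ABL1 lines. The groups overlapped through the lines of mouse 1. The log2 fold change over all lines was -1.08 ± 0.28 (SE) with a 95% interval of -1.70 to -0.46, and it missed the threshold against 1.5-fold (adjusted p = 0.1064) while passing against no change (adjusted p = 0.008825). In mouse 1 the EV lines had 13.4 to 14.5 CPM and the BCR-ABL1 lines 7.2 to 14.2 CPM, which overlapped. In mouse 2 the EV lines had 18.1 to 33.6 CPM and the BCR-ABL1 lines 6.45 to 7.35 CPM, with a wide gap between them. Taken apart, the log2 fold change was -0.28 in mouse 1 and -1.84 in mouse 2, and the difference of -1.56 passed the interaction test (adjusted p = 0.0125). Tested on mouse 2 alone, Vav3 was called lower (log2 fold change -1.82, adjusted p = 0.01591).

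No RAC gene was called. Among the 3 RAC genes and Rhoh, 0 passed glmTreat, 0 reached an unadjusted p under 0.05 in it, and 0 were called by the likelihood ratio fit or DESeq2. Rac1 (ENSMUSG00000001847, chr5:143503634-143528036, minus strand) lay between 153 and 197 CPM (median 172) in EV lines and between 177 and 208 CPM (median 193) in BCR-ABL1 lines. The groups overlapped, and the log2 fold change of 0.15 had a 95% interval of -0.014 to 0.32 (adjusted p = 1). In mouse 1 every BCR-ABL1 line, at 186 to 208 CPM, was above every EV line, at 153 to 162 CPM. In mouse 2 the EV lines at 181 to 197 CPM and the BCR-ABL1 lines at 177 to 194 CPM overlapped. The difference between the mice was -0.35 on the log2 scale (adjusted p = 0.04301), and it missed the threshold with RLE size factors (adjusted p = 0.05082) and without a filter on low counts (adjusted p = 0.7291).

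The value of Rac1 is uncertain in 1 respect. Its exons share 2309 bases, 51.4% of its exon length, with Daglb on the opposite strand. The libraries were stranded, but the strand setting of the counting is not given in the sources used here. Daglb was counted at 14.4 to 21.8 CPM with EV and 15.2 to 18.8 CPM with BCR-ABL1, far below Rac1, and was not called (log2 fold change -0.09, adjusted p = 1). None of the other 9 genes shared exon bases or a run of 75 bases with another gene. Genes outside the 10 were not checked for overlap.

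Rac2 (ENSMUSG00000033220, chr15:78559167-78572783, minus strand) lay between 163 and 277 CPM (median 219) in EV lines and between 195 and 241 CPM (median 214) in BCR-ABL1 lines. The BCR-ABL1 lines lay inside the range of the EV lines. Its log2 fold change of -0.04 had a 95% interval of -0.30 to 0.22 (adjusted p = 1), so a 1.5-fold change in either direction lay outside the interval. Rac3 (ENSMUSG00000018012, chr11:120721470-120723969, plus strand) lay between 2.08 and 6.04 CPM (median 5.2) in EV lines and between 2.62 and 3.56 CPM (median 2.87) in BCR-ABL1 lines. The BCR-ABL1 lines fell within the EV range. Among EV lines, EV 2A and EV 2B were at 2.73 and 2.08 CPM, below the other EV lines at 4.89 CPM or more. The log2 fold change was -0.60 with a 95% interval of -1.16 to -0.038 (adjusted p = 0.7313).

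Rhoh (ENSMUSG00000029204, chr5:65861213-65896700, plus strand) lay between 88.1 and 238 CPM (median 98.1) in EV lines and between 94.5 and 124 CPM (median 110) in BCR-ABL1 lines. Only EV 2A and EV 2B, at 219 and 238 CPM, stood outside the narrow band of the other 10 lines. For the groups as a whole the log2 fold change of -0.33 had a 95% interval of -0.91 to 0.25 (adjusted p = 1), which covers a 1.5-fold decrease. EV 2A and EV 2B were thus the highest EV lines for Rhoh and the lowest for Rac3.

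**Figure D2:**
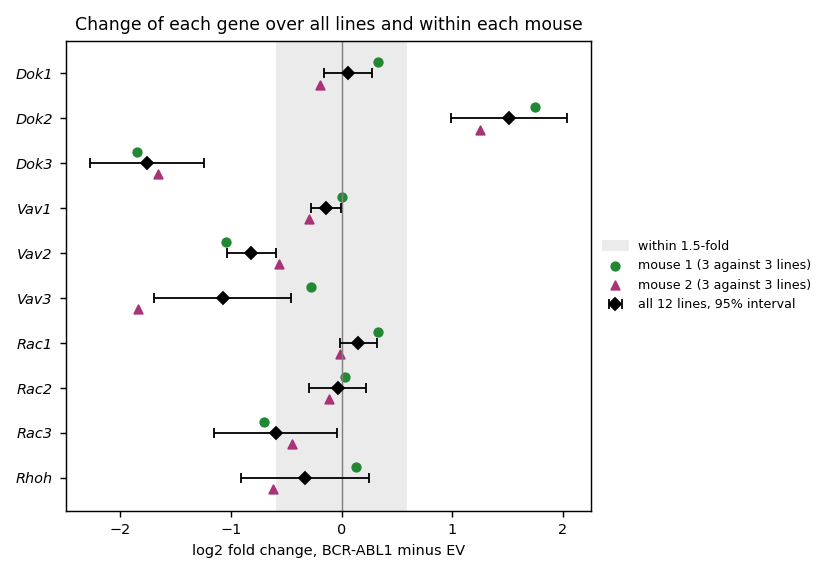
Log2 fold change of each gene (BCR-ABL1 minus EV, horizontal axis) over all 12 lines with its 95% interval (black diamonds) and within mouse 1 (green circles) and mouse 2 (purple triangles); the grey band spans changes within 1.5-fold. The interval of Dok2 lies wholly to the right of the band and those of Dok3 and Vav2 wholly to its left, and the mice are farthest apart for Vav3, at -0.28 and -1.84.

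Over the 10 genes, 1 was called higher and 2 were called lower. Among all tested genes 5.98% were called higher and 6.46% lower, and with so few genes neither count sets the 10 genes apart from that background. With mouse as a term of the fit the same 3 genes were called, where 7.47% of all genes were higher and 7.16% lower. Against no change, Dok2 was higher and Dok3, Vav2 and Vav3 were lower, beside 22.5% and 25.9% of all genes. Lines of the groups did not overlap in Dok2, with BCR-ABL1 above, and in Dok3 and Vav2, with BCR-ABL1 below, beside 12.1% and 13.5% of all genes. The interaction of mouse and condition was called in 4 of the 10 genes and in 16.7% of all genes. The median log2 fold change of the 10 genes was -0.235, that of all tested genes -0.0242.

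The genes can be compared with each other only per length, for which CPM were divided by kilobases of annotated exon. This length counts the exons of all annotated transcripts, so a gene that uses short transcripts is set too low. The level of Rac1 also carries the uncertainty of its overlap with Daglb. In EV lines Dok3 was the most abundant of the 10 genes at 129 ± 45.8 CPM per kb (SD, n = 6), followed by Rac2 at 71.4 ± 13.1, though the ranges of these genes overlapped. Vav1 at 41.2 ± 2.54 and Rac1 at 38.5 ± 4.31 CPM per kb came next and overlapped with each other. Dok1 at 17 ± 2.77, Vav2 at 16.6 ± 2.57 and Rhoh at 13.4 ± 6.75 CPM per kb could not be ordered beyond their spread. The same held for Rac3 at 3.51 ± 1.33 and Vav3 at 3.21 ± 1.3 CPM per kb, and Dok2 was last at 0.142 ± 0.042 CPM per kb.

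In BCR-ABL1 lines Rac2 was first at 69.6 ± 7.18 CPM per kb, and its lowest line was above the highest line of every other gene. Rac1 at 42.7 ± 2.31, Dok3 at 38.3 ± 1.77 and Vav1 at 37.4 ± 2.87 CPM per kb followed, each overlapping its neighbour. Dok1 at 17.7 ± 1.19 CPM per kb stood clear on both sides. Rhoh at 10.7 ± 1.18 overlapped with Vav2 at 9.44 ± 0.705 CPM per kb, and Rac3 at 2.32 ± 0.325 with Vav3 at 1.52 ± 0.567 CPM per kb. Dok2 was again last at 0.405 ± 0.113 CPM per kb.

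Shares within each family, taken from these per-length levels, describe which gene made most of the family's RNA. Dok3 made 86.4% ± 8.58 of DOK RNA in EV lines and 67.9% ± 1.47 in BCR-ABL1 lines (SD, n = 6 each). Dok1 made 13.5% ± 8.53 and 31.4% ± 1.46, and Dok2 stayed at or below 0.971% in every line. In EV 2C the shares were 69.1% for Dok3 and 30.7% for Dok1, inside the ranges of the BCR-ABL1 lines, but its Dok2 share of 0.195% was below their 0.544% to 0.971%, and the other EV lines held 87.3% to 91.7% Dok3. Vav1 made 65.1% to 71.3% of VAV RNA in EV lines and 74.5% to 79.3% in BCR-ABL1 lines, without overlap. The share of Vav2 went from 27.3% ± 4.23 to 19.6% ± 2.47 and that of Vav3 from 5.24% ± 2.01 to 3.12% ± 1.01, both with overlap. Per length, Rac2 was the main RAC gene in every line, with 62.5% ± 6.21 in EV and 60.6% ± 1.93 in BCR-ABL1 lines, beside 34.3% ± 5.8 and 37.4% ± 2.05 for Rac1 and 3.17% ± 1.32 and 2.02% ± 0.181 for Rac3. Without division by length Rac1 reached 53.8% and Rac2 went down to 44.6% among EV lines, so this order depends on the lengths. It also depends on the Rac1 count, which the overlap with Daglb leaves uncertain.

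**Figure D3:**
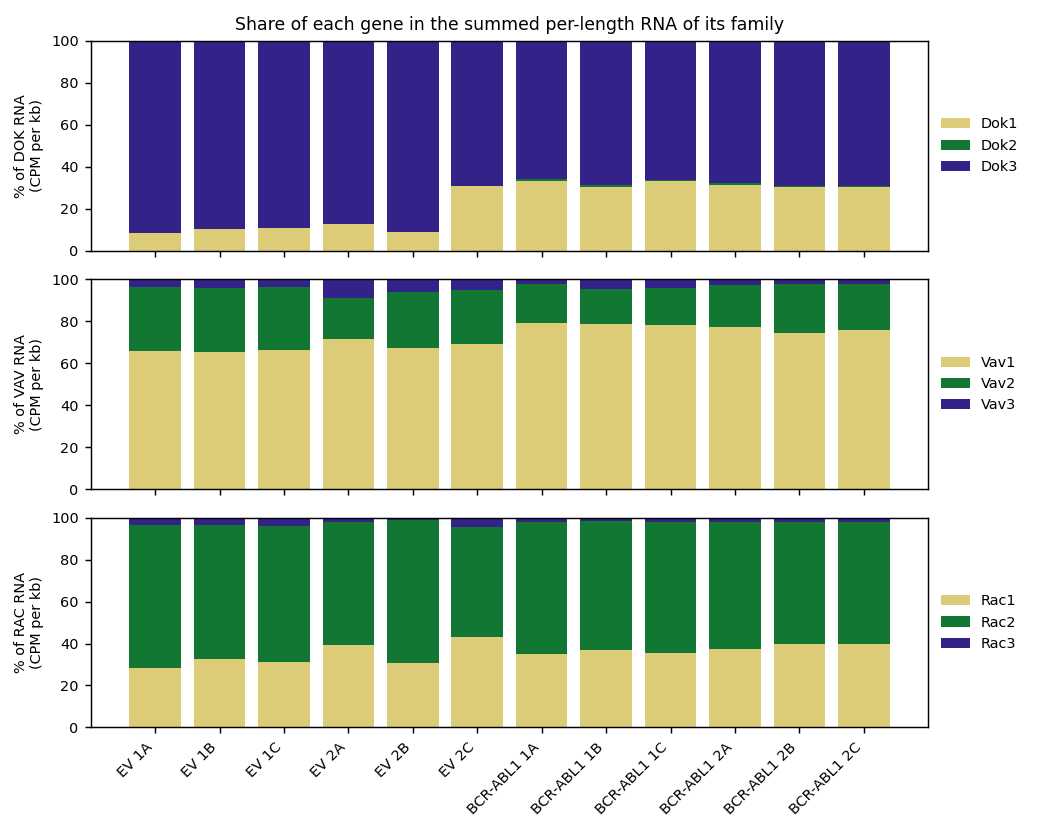
Share in percent (vertical axes from 0 to 100) of each gene in the summed CPM per kb of its family in each line; the panels show DOK, VAV and RAC genes, each bar is 1 line. In EV 2C the Dok1 and Dok3 shares, the latter at 69.1%, fall inside the ranges of the BCR-ABL1 lines, and Rac2 makes most of the per-length RAC RNA in all 12 lines.

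The genes whose log2 CPM ran most alike with a called gene over the 12 lines were picked by Pearson correlation among all tested genes. These 12 lines share the difference between the conditions, so the correlations are descriptions. For Dok3 they included Gpr107 (0.991) and Phf2os1 (0.989). For Vav2 they were Ss18l1 (0.984), Ints3 (0.981) and Vps8 (0.979), and for the sparsely counted Dok2 they were Scoc (0.963), Nrg4 (0.959) and 6530402F18Rik (0.958).

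The proteins around DOK, VAV and RAC were followed through lists of their genes. The list of exchangers other than VAV that load RAC or its relatives also held the ELMO genes, which encode partners of DOCK exchangers. In this list 6 of 26 tested genes rose in BCR-ABL1 lines. Its median log2 fold change was 0.26 beside -0.0242 over all genes. Of all tested genes 5.98% were called higher and 6.46% lower, the background for this list and those that follow. Tiam1, a RAC exchanger, had 0.0153 to 0.981 CPM in the EV group against 4.04 to 48.1 CPM in the BCR-ABL1 group. Its log2 fold change of 7.04 ± 1.18 (SE, adjusted p = 0.001655) rests on an EV level close to the floor. Fgd2, which is better known as an exchanger for CDC42, was at 3.59 to 25.3 CPM with EV and 192 to 216 CPM with BCR-ABL1 (log2 fold change 4.74, adjusted p = 0.0001211). Dock5 rose by 1.91 (adjusted p = 0.0005198) and Def6, a lymphoid exchanger, by 1.41 (adjusted p = 0.001413) on the log2 scale. The other called genes of this list, named after their values were seen, were Trio and Prex1. Both were close to the threshold (adjusted p = 0.04241 and 0.04144, glmTreat), and their groups overlapped. With mouse as a term of the fit 7 rose, the added gene being Dock9 (adjusted p = 0.04047, glmTreat), named after its values were seen. None of the 26 genes fell by glmTreat, the likelihood ratio fit or DESeq2, while 2 had a lower level at an unadjusted p under 0.05 in glmTreat. Against no change 5 of the 26 were lower, beside 25.9% of all genes.

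Among the proteins that turn RAC off or hold it in the cytosol, 1 of 17 tested genes rose, close to the background of 5.98%, and 3 fell, beside 6.46% of all genes. Arhgap9 rose, with 4.34 to 18.3 CPM in the EV group and 25.4 to 42.4 CPM after transformation (log2 fold change 1.42, adjusted p = 0.01426). The genes that fell encode GTPase-activating proteins. Arhgap17 had 43.2 to 138 CPM in the EV group against 21.9 to 32.9 CPM in the BCR-ABL1 group (log2 fold change -1.82, adjusted p = 0.0009066). Bcr, the mouse gene for the protein whose human counterpart forms part of the fusion kinase, was at 70 to 144 CPM with EV and 39.7 to 52.8 CPM with BCR-ABL1 (log2 fold change -1.17, adjusted p = 0.003085). Whether reads of the vector's fusion gene reached Bcr was not tested. Abr, its close relative, changed by -0.90 (adjusted p = 0.03415). The median of the list was -0.234.

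Among RAC effectors, 1 of 24 tested genes rose and 3 fell, beside 5.98% and 6.46% of all genes, with a median of -0.0989. With mouse as a term of the fit 2 rose, the added gene being Cyfip1 (adjusted p = 0.03393), named after its values were seen. Abi2, a subunit of the WAVE complex that builds actin networks, had 0.306 to 1.66 CPM in the EV group against 21.4 to 31.8 CPM in the BCR-ABL1 group (log2 fold change 4.70, adjusted p = 2.667e-05). Another WAVE subunit, Cyfip2, was at 432 to 812 CPM with EV and 206 to 348 CPM with BCR-ABL1 (log2 fold change -1.21, adjusted p = 0.004299). Ncf1, a subunit of the NADPH oxidase, had 8.21 to 22.7 CPM in the EV group against 0.376 to 2.1 CPM in the BCR-ABL1 group (log2 fold change -3.61, adjusted p = 0.0002155). Plcb2, a phospholipase, changed by -1.09 (adjusted p = 0.03515).

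Partners of the DOK and VAV proteins were mostly not called: 1 gene rose and 1 fell in each list, too few to be set apart from the 5.98% and 6.46% of all genes. Of 11 tested genes in the DOK list, the adaptor Nck2 rose, with 0.0144 to 3.06 CPM in the EV group and 8.81 to 22.7 CPM after transformation (log2 fold change 4.05, adjusted p = 0.0185). Its EV level was 0.0144 to 0.094 CPM in mouse 1, close to the floor, and 0.667 to 3.06 CPM in mouse 2. Rasa2, a GTPase-activating protein for RAS, was at 70.4 to 99.3 CPM with EV and 36 to 53 CPM with BCR-ABL1 (log2 fold change -0.98, adjusted p = 0.004509). Rasa1 and Inpp5d, which encode the RASGAP and SHIP1 named above, were not called (log2 fold change -0.15 and 0.008). Both are named after their values were seen. Whether Rasa2 and the other RAS regulators of the list bind DOK proteins was not tested. The list had a median of -0.00445. With mouse as a term of the fit 2 genes of the DOK list rose, the added gene being Rasa3 (adjusted p = 0.04405, glmTreat), named after its values were seen. Of 10 tested VAV partners, Sla2, an adaptor that dampens antigen receptor signalling, rose, with 0.418 to 1.55 CPM in the EV group and 2.37 to 3.49 CPM after transformation (log2 fold change 2.06, adjusted p = 0.002308). Lat2, a membrane adaptor of B cells, fell, with 4.97 to 9.49 CPM in the EV group and 1.63 to 3.14 CPM after transformation (log2 fold change -1.82, adjusted p = 0.0007918). The median of this list was -0.244.

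Of the other 4 DOK genes 2 were tested, and neither was called by glmTreat, the likelihood ratio fit or DESeq2, nor reached an unadjusted p under 0.05.

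**Figure D4:**
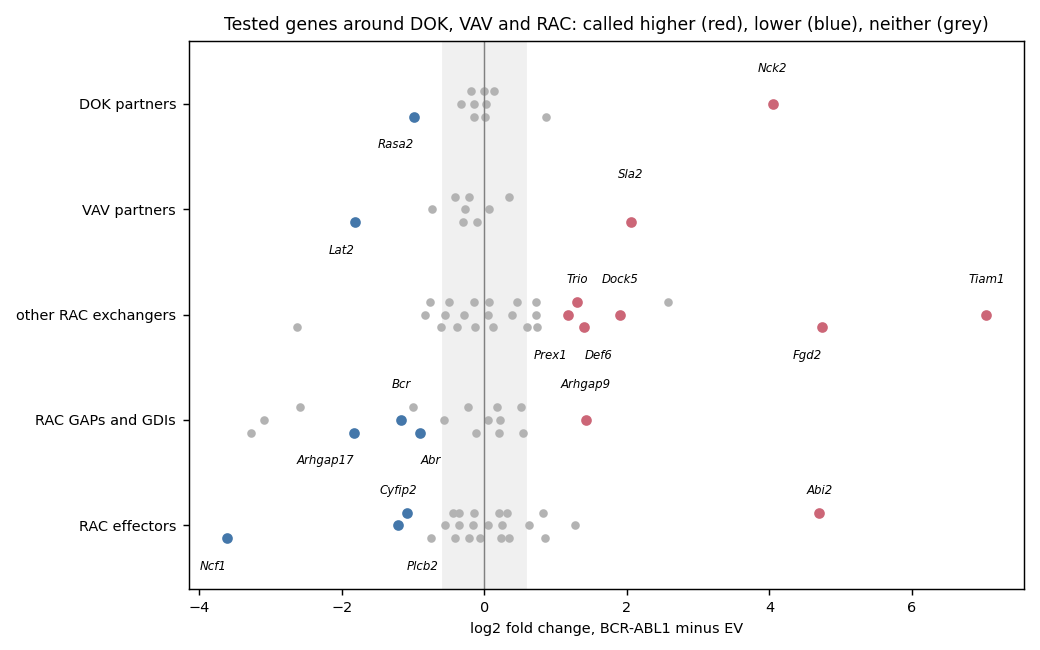
Log2 fold change (BCR-ABL1 minus EV, horizontal axis) of every tested gene in 5 lists around the DOK, VAV and RAC genes; each point is 1 gene, red points were called higher, blue points lower and grey points neither, and the grey band spans changes within 1.5-fold. The list of other RAC exchangers holds 6 red and no blue points. The lists with GTPase-activating proteins and with effectors hold 1 red and 3 blue points each.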

How the data were processed

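RNA of 6 EV and 6 BCR-ABL1 lines was sequenced as stranded total RNA libraries. The authors deposited whole-number counts of reads per gene without normalization. The submitters' processing notes name FastQC 0.11.5, Trimmomatic 0.36, TopHat2 2.1.1, Bowtie2 2.3.2, featureCounts 1.5.3, R 3.6.1 and edgeR 3.18.1 on GRCm38. Symbols and lengths came from GENCODE M21, which held 51633 of 51826 identifiers.

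Counts were tested with edgeR 4.0.16, which uses limma 3.58.1, in R 4.3.3. After filterByExpr and TMM, glmTreat on quasi-likelihood fits set each change against 1.5-fold. P-values were adjusted by Benjamini and Hochberg over all tested genes, with a threshold of 0.05. Standard errors and 95% intervals came from the same fit, and the difference between the mice from glmQLFTest of the interaction. Log2 CPM used a prior count of 2. DESeq2 1.42.0, a likelihood ratio fit and other settings were alternatives. The fits were run on simulated counts that gave each gene the same dispersion in all lines and no difference between mice. The unequal spread of the real lines was therefore not covered. Figures used matplotlib in Python.

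Total counts were 34791011 to 66011225 per line. The floor of 3 counts covers counting error only. Lines of 1 mouse and condition differed beyond sampling noise (chi-square per gene 9.36 to 434). The labels tie lines with the same number to 1 mouse, and deviations of EV and BCR-ABL1 lines correlated by 0.0853 to 0.24 within a mouse and by -0.203 to -0.0636 between mice.

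The genes named outside the 10 are, per list, up to 4 called genes with the largest change, and the 3 genes most like each called gene, except where a gene is said to be named after its values were seen, while marker genes are named for the check of cell types. The genes and lists were chosen with earlier results of these data known. A further gene list, which the counts over the pathway lists include, and 1 gene picked by likeness are not reported here.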

Additional observations from a re-analysis of the deposited data

Results flagged for a closer look

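Of 38 groups of 6 lines, 3 held a line far from the others by Dixon's test, which flags about 1 group in 20 by chance. In BCR-ABL1 1B Dok3 was at 103 CPM, above the other BCR-ABL1 lines. In EV 2C the share of Dok1 in DOK RNA was 30.7% and that of Dok3 was 69.1%, while the Dok3 share of the other EV lines was 87.3% or more. Dok2 made only 0.195% of DOK RNA in EV 2C, so these shares mirror each other and are not separate observations.

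The change between EV and BCR-ABL1 lines differed between the mice in 4 of 10 genes tested, by edgeR's interaction test with 3 lines per mouse and condition. Of all tested genes 16.7% passed that test. Mouse 2 minus mouse 1, the difference in log2 fold change was -0.524 for Dok1 (adjusted p = 0.01676), 0.478 for Vav2 (adjusted p = 0.04865), -1.56 for Vav3 (adjusted p = 0.0125) and -0.351 for Rac1 (adjusted p = 0.04301). Without a filter on low counts Dok1, Vav2 and Rac1 missed the threshold of the interaction test (adjusted p = 0.2618, 0.06972 and 0.7291), while Vav3 passed. With RLE size factors Rac1 missed it as well (adjusted p = 0.05082). The mice are single animals, and their EV lines varied unequally, with a biological coefficient of variation of 0.0949 in mouse 1 and 0.387 in mouse 2. The part of that spread in these differences was not tested.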

How the results depend on the processing

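Of the 10 genes, Dok3 kept its call in 21 of 22 alternatives and Dok2 in 20 of the 21 in which it was tested. Both missed the threshold on the lines of mouse 2 alone (adjusted p = 0.1308 and 0.2112). Vav2 kept its call in 8 of 22. It was lost with RLE size factors (0.05768), no gene filter (0.1696), the likelihood ratio fit (0.05093), DESeq2 (0.3634) and mouse 2 alone (0.8538), each an adjusted p. The number of the 10 genes called lower was 1 under each of these settings, and 1 to 2 when single lines were left out. It was 1 without EV 1A, EV 1B, EV 1C, EV 2B, BCR-ABL1 1A, BCR-ABL1 1B, BCR-ABL1 1C or BCR-ABL1 2A, with Vav2 at adjusted p-values up to 0.1591. The number called higher was 0 with the filter that asks 6 lines to reach 1 CPM, which left Dok2 untested, and 0 in mouse 2 alone. Vav3 was called lower against no change and in mouse 2 alone. No alternative turned the direction of a called gene. The interaction of Rhoh passed without a gene filter (adjusted p = 0.01718). Without division by length the shares moved by more than 1 SD in 14 of 18 cases, and Vav2 then made 40.1% of VAV RNA in EV lines. That shift is arithmetic, as the genes differ in exon length. Why calls changed between settings was not tested.

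Over all genes, 598 were higher with the CPM filter. Against no change 3386 were higher and 3901 lower, in mouse 1 alone 2500 and 1878, in mouse 2 alone 590 and 387. In the pathway lists the counts were 26 and 25 against no change, 25 and 15 in mouse 1, and 7 and 5 in mouse 2. Leaving out single lines gave 802 to 1348 genes higher and 798 to 1433 lower, the largest counts without EV 2C.

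A replicate block for the mouse gave 1123 higher and 1076 lower genes, and 1 and 2 of the 10 genes. With a block for each pair of lines of the same mouse and letter Vav2 was lost (adjusted p = 0.08068), leaving 1 gene lower. After removal of mouse means, lines with the same letter correlated by -0.109 to 0.0856, which does not exclude a pairing by letter. The methods of the study describe triplicates prepared in independent experiments. Whether the letters stand for those experiments was not settled here.

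Depth limits Dok2, with 13 to 82 reads per line. BCR-ABL1, IL7 withdrawal and the sort cannot be told apart, and 2 mice do not allow a test between animals.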
